A study of Mus musculus with 8 samples.

Results

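The regions described here are sites of strong DC-SCRIPT signal in type 1 conventional dendritic cells (cDC1) that lay far from any protein-coding gene and had no listed peak centred within 1 kb in type 2 cells (cDC2). They were selected on 3 properties of the peak list of cDC1: a wild-type signal of at least 25 normalised tags, which are tags scaled to a total of 10000000, no such cDC2 peak, and a centre over 10 kb from every protein-coding gene body of the RefSeq annotation of GRCm38. Of 31473 cDC1 peaks, 8201 reached the signal, 6824 of those had no cDC2 peak nearby, and 1290 were far from genes. The authors' limits had kept 18% of 174971 putative cDC1 peaks as higher in wild type than in knockout, and every region here is among them because it was chosen from that list.

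DC-SCRIPT was profiled by CUT&Tag, in which a transposase tethered to an antibody cuts and tags the DNA around the bound protein. The cells were isolated from spleens of female C57BL/6 mice that were either zfp366+/+ or zfp366-/-. Wild-type cDC1 came as 3 mouse pools and knockout cDC1 as 2, while cDC2 came as 1 wild-type and 2 knockout pools. Each subset was deposited as 1 list made from 1 set of wild-type tags (35.5 M in cDC1, 4.77 M in cDC2) and 1 set of knockout tags (12.1 M in cDC1), so that values per pool were not used here, whether every pool entered its set is not stated, and no spread between mice can be given. Which part of Zfp366 the knockout lacks, and the cells in which it is lost, are not given in the labels.

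DC-SCRIPT is a zinc finger protein encoded by Zfp366 that is found mainly in dendritic cells and acts as a transcriptional regulator with corepressors. Regulatory elements of immune cells often lie in the DNA between genes, where enhancers can act over long distances on a gene that need not be the nearest one. Long non-coding RNA genes and microRNA genes also lie in such stretches. The gene named with each region below is the nearest protein-coding gene and serves as an address.

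Few of these regions could be read as DNA, because only promoter windows of 300 bases, taken from RefSeq for GRCm38, were used as sequence. Of the 1290 regions, 35 overlapped such a window. Windows of protein-coding genes were out of reach, since the regions lay over 10 kb from those genes. All 35 windows belonged to long non-coding RNA genes. The 5 regions printed here show what bound DNA at such a start looked like. They were chosen after their values were seen, Gm9875 as the strongest of the 12 regions that lay in a window with at least 150 bases of their length, and the others because the RNA or its neighbour has a known role. Each is written 5′ to 3′ on the strand of the RNA gene, and capitals mark matches to any of 13 short motifs that are spelled out with the counts below.
Gm9875, plus strand, chr2:13558670-13558860: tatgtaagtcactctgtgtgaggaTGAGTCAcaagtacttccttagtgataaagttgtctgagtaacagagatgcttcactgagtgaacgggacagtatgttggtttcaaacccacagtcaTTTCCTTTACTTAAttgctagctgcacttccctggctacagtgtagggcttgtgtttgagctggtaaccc
Lncpint, minus strand, chr6:31218490-31218680: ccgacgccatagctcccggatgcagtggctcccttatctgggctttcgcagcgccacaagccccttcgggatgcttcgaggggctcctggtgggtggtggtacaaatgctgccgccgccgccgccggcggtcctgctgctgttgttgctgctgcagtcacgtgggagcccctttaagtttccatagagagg
Ptgs2os2, minus strand, chr1:150164899-150165086: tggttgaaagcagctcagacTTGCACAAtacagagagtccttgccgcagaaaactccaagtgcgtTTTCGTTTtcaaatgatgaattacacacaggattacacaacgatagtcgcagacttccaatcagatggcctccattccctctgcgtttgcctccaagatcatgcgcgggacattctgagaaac
Mirt1, minus strand, chr19:53464747-53464903: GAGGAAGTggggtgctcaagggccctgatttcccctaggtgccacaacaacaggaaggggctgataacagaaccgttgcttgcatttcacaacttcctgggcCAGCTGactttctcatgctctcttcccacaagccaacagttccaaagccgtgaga
Morrbid, minus strand, chr2:128429390-128429580: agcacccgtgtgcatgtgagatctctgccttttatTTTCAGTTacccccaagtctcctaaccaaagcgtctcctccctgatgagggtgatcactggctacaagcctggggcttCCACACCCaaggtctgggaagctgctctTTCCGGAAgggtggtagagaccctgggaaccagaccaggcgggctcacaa

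The region at the start of Gm9875 was the strongest of the 5, at 75 normalised tags in wild type (fold over knockout 12.1), and held an AP-1 match followed by overlapping interferon response and NFIL3 matches. At Morrbid, an RNA that restrains the pro-apoptotic gene Bcl2l11 in short-lived myeloid cells, the region held 27.2 normalised wild-type tags against 1 knockout tag (fold 33.0, 95% interval 5.76 to 1310). The fold is wild-type over knockout tags at equal depth, and the range or interval beside a fold is the exact 95% interval of the tag ratio, which covers counting error only. Values called knockout tags in the text are unscaled, so that normalised wild-type tags divided by them do not give the fold. The Morrbid sequence carried an interferon response match, a KLF match and the palindrome that is read as an ETS match on both strands. Ptgs2os2 lies near Ptgs2, which encodes cyclooxygenase-2, and its region reached 29.9 tags with a fold of 24.2 (95% range 4.90 to 151.6), with a C/EBP and an interferon response match in its sequence. The Mirt1 start, 64.3 kb from the phosphatase gene Dusp5, reached 29.9 tags and 7 knockout tags, and its sequence began with a PU.1 match. No match to the 13 motifs stood in the region at the start of Lncpint, a p53-induced RNA, which reached 37.8 tags.

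Each motif was searched on both strands in whole windows, so that 1 window could count for several motifs. An AP-1 match (TGANTCA) stood in 6 of the 35 windows, or 17.1%, beside 9.31% of the 11588 windows of long non-coding RNA genes and 7.81% of all 32851 windows. The interferon response letters (AANNGAAA) stood in 14 of 35 windows (40%) beside 27.9% of long non-coding RNA windows, and the ETS letters (CCGGAA) in 8 of 35 (22.9%) beside 7.94% of long non-coding RNA windows and 14.9% of all windows. The E-box CACCTG, the form bound by repressors such as ZEB2, stood in 12 of 35 (34.3%) beside 21.1%. RUNX letters (TGTGGTT) were found in 4 windows (11.4% beside 6.29% of long non-coding RNA windows) and PU.1 letters (GAGGAAGT) in 3 (8.57% beside 3.33%). The ETS-IRF composite (GGAANNGAA) and the C/EBP letters (TTGCNNAA) stood in 3 windows each, 8.57% beside 9.12% and 11.95%. The E-box CAGCTG stood in 14.3% beside 17.7%, KLF letters (GGGNGTGG) in 20% beside 14.3% and CTCF letters (AGGNGGC) in 25.7% beside 21.5%. NF-kB (GGGANTTCC) and NFIL3 letters (TTANGTAA) stood in 1 window each, 2.86% beside 1.38% and 2.47%. Among all 32851 windows the CTCF letters stood in 29.4% and the KLF letters in 17.6%, so that CTCF lay below this share and above that of long non-coding RNA windows. Many matches lay outside the part of the window that the region covered: within that part stood the AP-1 letters in 2 windows, PU.1 in 1, RUNX in 1, KLF in 1, CACCTG in 6, ETS in 5, the interferon response letters in 11 and NF-kB in 0. These shares were not tested, and with 35 windows a single window is worth 2.86 percentage points. The 32851 windows include those of protein-coding genes, which no region could overlap. The composite and the interferon response letters overlap in part.

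Signal over the 1290 regions ran from 25 to 164.1 normalised wild-type tags, with a median of 34.4 and quartiles of 28.6 and 45.0. Of these, 413 regions lay under 30 tags, and 12 reached 100 or more. Their median fold over knockout was 13.7, with quartiles of 8.89 and 25.1, and the median knockout value was 3.5 tags. The lowest knockout value listed, 0.5 tag, which also stands for none, was given for 112 regions (8.68%). The median fold over the surrounding 10 kb was 9.20. Signal and fold come from the contrast that chose the regions and are given as a description. The weakest regions inside the limit, next to Arhgap18, Prdm1 and Arhgap5, held 25 tags, and the nearest outside it, at Plxna1, Arrdc4 and Zbtb38, held 24.8. In the interval from 25 to 26 tags lay 125 regions, and 111 otherwise equal peaks lay from 24 to 25.

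The 15 regions with the most tags lay next to Pttg1ip2, Plekho2, Actr3, Kifbp, Tomm20, Ramp3, Reep3, Cst3, Polr1a, Trib1, Irf2bp2, Chd2, S100a11, Rin2 and Fos. The highest, 17.6 kb from Pttg1ip2 on chromosome 5 at 5420086 to 5420276, reached 164.1 normalised tags against 9.5 knockout tags (fold 20.9, 95% interval 10.8 to 41.7), and its nearest cDC2 peak was 3768 kb away. Near Plekho2, on chromosome 9 at 65542293 to 65542483, 139.6 tags stood against 11.5 knockout tags (fold 14.7, 95% interval 8.01 to 27.5). Among the 15 the distance to the nearest cDC2 peak ran from 1.77 kb at Trib1 to 3768 kb at Pttg1ip2, and was 6.15 kb at Plekho2. Actr3 encodes a subunit of the Arp2/3 complex that branches actin filaments, and its region 37.8 kb away on chromosome 1 held 117.6 tags with a fold of 28.5 (95% range 12.1 to 88.3). The region between Srgn, the gene of the granule proteoglycan serglycin, and Kifbp reached 113.3 tags and a fold of 14.5.

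The lowest knockout values among these 15 belonged to Reep3 and Cst3. The Reep3 region, on chromosome 10 at 66930739 to 66930929, had 109.8 normalised wild-type tags and the lowest knockout value listed, which puts it at least 44.4-fold higher in wild type when 3 knockout tags are taken as the floor. At Cst3, the gene of the protease inhibitor cystatin C that dendritic cells express strongly, 109.5 tags stood against 1 knockout tag (fold 135.4, 95% interval 23.7 to 5255). Fos, which encodes a subunit of AP-1, had its strongest region 18.7 kb upstream at 96.3 tags and a fold of 11.1 (95% range 5.87 to 21.5), and 3 more at 25.8, 25.4 and 31.4 tags. Rin2, which encodes a regulator of the endosomal GTPase Rab5, had a region of 96.4 tags that lay inside the long non-coding RNA gene BC039771. The region near Chd2, a chromatin remodeller gene, reached 101.9 tags and overlapped by 49 bases the promoter window of Chaserr, the RNA gene beside it.

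The regions were spread over the genome. Their nearest genes numbered 867, which is 3.96% of 21887 protein-coding genes, and 617 of these genes had 1 region, so that 617 of the 1290 regions were the only one at their gene. Genes with 5 or more regions numbered 21. Chromosome 1 held 124 regions, 9.61% of them, beside 8.38% of all far cDC1 peaks. Chromosome 10 held 107, or 8.3% beside 7.3%, and chromosome 12 held 81, or 6.28% beside 4.95%. The X chromosome held 14 regions, or 1.09%, beside 2.44% of all far cDC1 peaks.

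The 5 genes with the most regions were Id2 and Cxcr4 with 8 each, and Marcks, Prdm1 and Jarid2 with 7 each. Id2, an inhibitor of E proteins that is required for cDC1 to develop, had all 8 upstream, in the gap of 1211 kb that separates it from Rnf144a. From the gene outward they stood 46.3, 92.7, 155.6, 158.8, 210.1, 215.8, 234.0 and 293.2 kb away, with 25.1, 25.2, 47.6, 56.5, 79.8, 56.1, 47.5 and 30 normalised tags. The signal was thus highest in the middle of the array, and 5 regions between 155.6 and 234.0 kb held 47.5 tags or more. Folds at Id2 ran from 8.06 (95% interval 4.55 to 15.8) at the strongest region to 57.6 (95% interval 10.2 to 2283) at the region 234.0 kb away, where 1 knockout tag was listed. The cDC2 list had 6 peaks assigned to Id2, none of them within 1 kb of these regions, and the nearest lay 11.7 kb from one.

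Cxcr4 encodes the receptor for the chemokine CXCL12, which holds cells in bone marrow and lymphoid niches. Its 8 regions lay upstream in 2 sets, 5 of them from 83.5 to 132.5 kb and 3 from 221.2 to 240.3 kb. Signal in the nearer set was 28.1, 39.2, 25.8, 48.5 and 69.2 normalised tags, and in the farther set 32.6, 53.0 and 33.3. The region of 69.2 tags, on chromosome 1 at 128724701 to 128724891, had a fold of 9.89 (95% range 4.83 to 20.6). The cDC2 peak closest to any of them was 26.5 kb away.

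Prdm1, the gene of the repressor Blimp-1, had 7 regions, all upstream toward Prep. The nearest, 10.6 kb from the gene on chromosome 10 at 44539101 to 44539291, was the strongest at 73.4 normalised tags and 9 knockout tags (fold 9.89, 95% interval 5.13 to 21.9). The others held 42.2, 37.6, 45.1, 25, 32.3 and 44.3 tags at 60.8 to 157.7 kb, and 5 of these lay within the long non-coding RNA gene Gm35154. The gap of 538.7 kb between Prdm1 and Prep contained 18 cDC1 peaks and 0 cDC2 peaks, and the nearest cDC2 peak was 158.2 kb or more from each of the 7. Bcl6, a gene of a transcriptional repressor, had 5 regions upstream with 71.0, 31.6, 57.8, 69.5 and 28.5 tags, the first with 1 knockout tag (fold 86.1, 95% interval 15.3 to 3418). There cDC2 peaks were close: 6.03 kb from the first region and 10.6 kb from the second.

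At Marcks the regions lay on both sides, and at Jarid2 on one. Marcks, the gene of an actin-binding substrate of protein kinase C, had 2 regions below the gene, at 94.0 and 30.7 normalised tags, and 5 above it, at 40.7, 35.4, 34.0, 49.8 and 40.2. The strongest, on chromosome 10 at 37106393 to 37106583, had a fold of 25.4 (95% range 9.67 to 70.6). Jarid2 encodes a cofactor of Polycomb repressive complex 2. Its 7 regions lay in the gap of 927.6 kb between Cd83, a maturation marker of dendritic cells, and Jarid2, and had 37.4, 44.1, 27.3, 47.5, 27.5, 27.6 and 25.4 tags. Their folds ran from 6.15 to 11.1. The gap beside Jarid2 also held 5 cDC2 peaks, the nearest 2.29 kb from the region of 47.5 tags. At Marcks the nearest cDC2 peak stood 4.32 kb from the region of 40.7 tags.

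**Figure D1:**
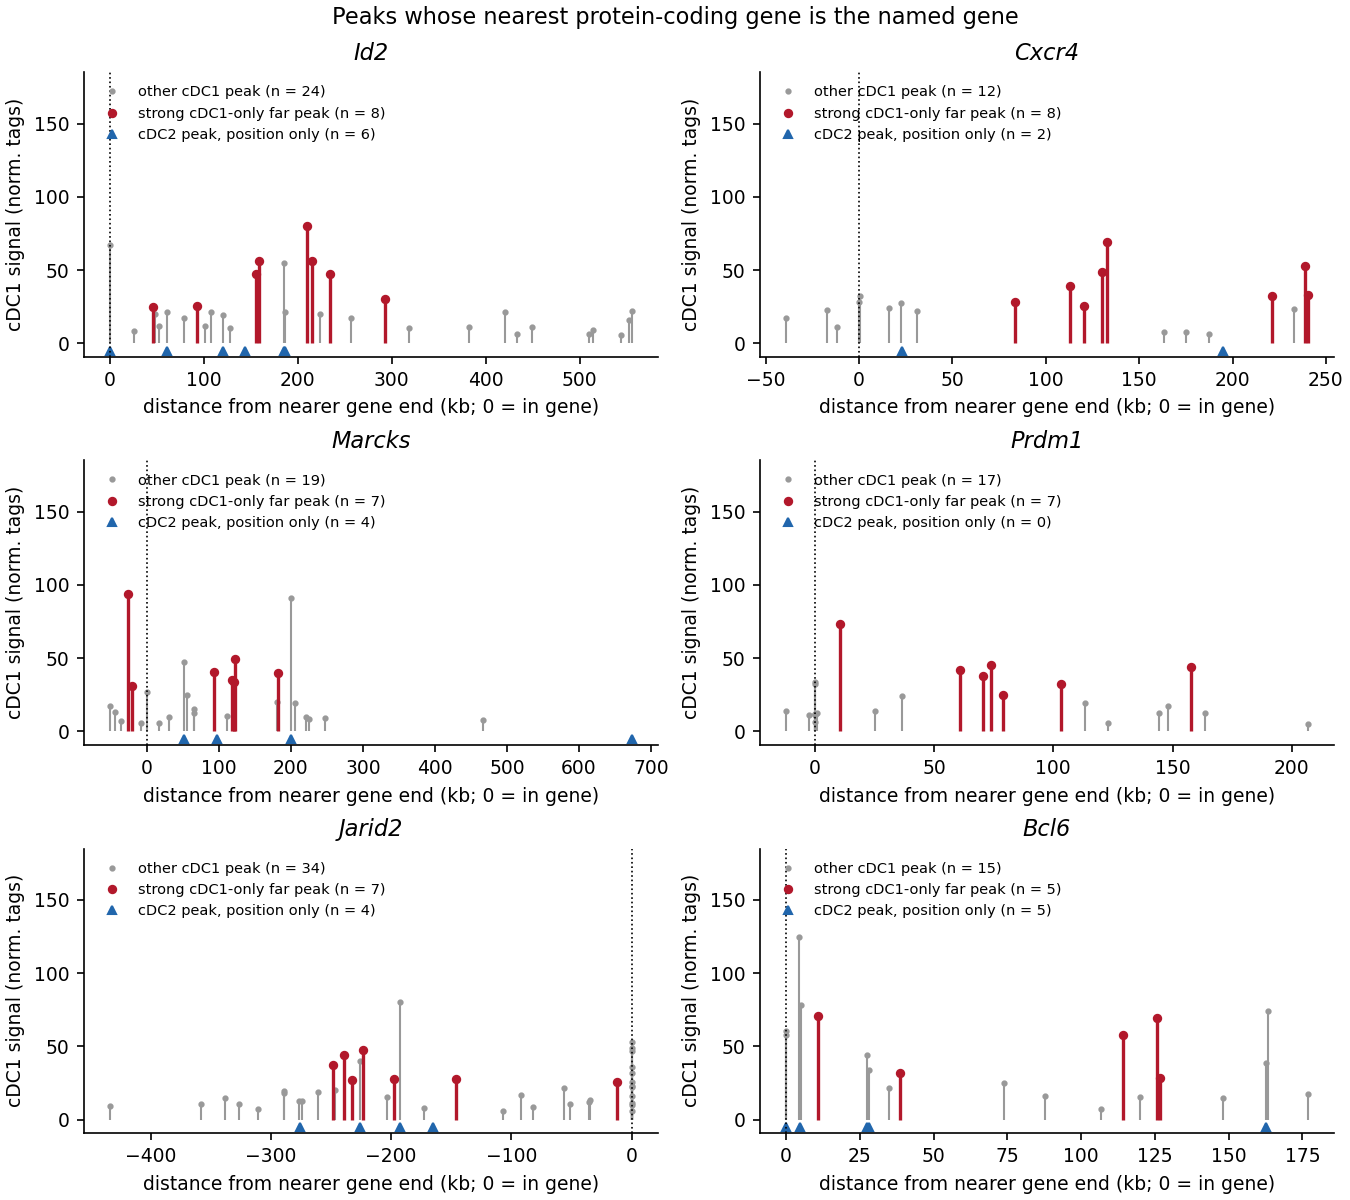
Peaks whose nearest protein-coding gene is Id2, Cxcr4, Marcks, Prdm1, Jarid2 or Bcl6, by signed distance in kb from the nearer gene end (0 is inside the gene, negative is toward lower coordinates) and wild-type cDC1 signal in normalised tags. Red stems are the strong cDC1-only far regions, grey stems other cDC1 peaks, and blue triangles mark where cDC2 peaks stood, with none for Prdm1.

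Genes with 6 regions were Tomm20, Trib1, Map3k1, Btg1, Rasgef1b, Ahr and Hlx. Trib1 encodes a pseudokinase that controls the stability of C/EBP alpha, and its regions held 25.4, 33.4, 38.6, 55.4, 52.3 and 104.7 normalised tags from the nearest, at 23.7 kb, to the farthest, at 173.0 kb. All 6 regions of Rasgef1b, a Ras exchange factor gene inducible by Toll-like receptors, lay inside the long non-coding RNA gene A930011G23Rik, at 28.6 to 58.6 tags. Map3k1, the gene of a kinase upstream of JNK, had its regions 117.8 to 183.0 kb upstream, the farthest of them the strongest with 95.4 tags and a fold of 10.5 (95% range 5.80 to 21.3). Hlx, a homeobox gene, had 6 downstream at 33.1 to 52.3 tags, and Ahr, the aryl hydrocarbon receptor gene, 6 at 25.5 to 52.7.

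Another such region lay within 50 kb of 669 of the 1290 regions, or 51.9% (exact 95% interval 49.1% to 54.6%). That interval treats regions as independent, although neighbours count together, so it is not a measure of their spread. Counted in the same way within their own class, the share was 71.1% of the 5778 weaker far peaks, 36.8% of the 410 strong shared far peaks and 56.3% of the 3806 strong cDC1-only peaks inside genes, classes that differ in number. The 669 regions formed 259 groups, of which 94 held 3 or more regions. The group with the most regions lay between Zfp236 and Zfp516, both zinc finger genes, on chromosome 18 from 82782836 to 82867816. Its 8 regions within 85.0 kb held 26.2 to 52.7 normalised tags, and among the 9 cDC1 peaks in that span only 1 was not of this kind, while no cDC2 peak fell in it. Between Irf2bp2, the gene of a corepressor that binds IRF2, and Tomm20, the gene of a mitochondrial import receptor, 7 regions spanned 109.9 kb of chromosome 8. They were the strongest of the 3 largest groups, with 104.6, 26.9, 37.2, 66.0, 28.9, 112.6 and 66.8 tags, and were interspersed with 6 cDC2 peaks, the closest 1.45 kb from a region. The third group, between Khdrbs1 and Ptp4a2 on chromosome 4, packed 7 regions into 32.3 kb at 26.6 to 54.6 tags with no cDC2 peak. Of the 259 groups, 49 spanned a cDC2 peak.

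The regions lay a median of 34.4 kb from the nearest protein-coding gene (95% interval 32.2 to 37.3), and 380 of them, or 29.5%, were within 20 kb. That interval treats regions as independent, although neighbours can share a nearest gene. The 3 farthest were 833.9 kb above Myc, the gene of the growth regulator MYC, 761.9 kb from the angiotensin receptor gene Agtr1b and 695.3 kb from the galanin receptor gene Galr1. The first 2 were weak, at 26.4 and 25.2 normalised tags, whereas that at Galr1, on chromosome 18 at 81697115 to 81697305, reached 56.7 with 2 knockout tags (fold 34.9, 95% interval 9.39 to 285.8). At the limit of 10 kb, 59 regions stood within 11 kb of a gene and 56 otherwise equal peaks stood from 9 to 10 kb away. The median distance was 36.2 kb for the 410 strong far peaks shared with cDC2 and 38.0 kb for the 5778 weaker cDC1-only far peaks. Where the strand of the nearest gene was known, 622 of 1000 regions (62.2%) lay on its upstream side, beside 62.2% of the shared and 58.6% of the weaker far peaks. These figures were not tested against each other, since peaks of 1 list are not replicates.

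**Figure D2:**
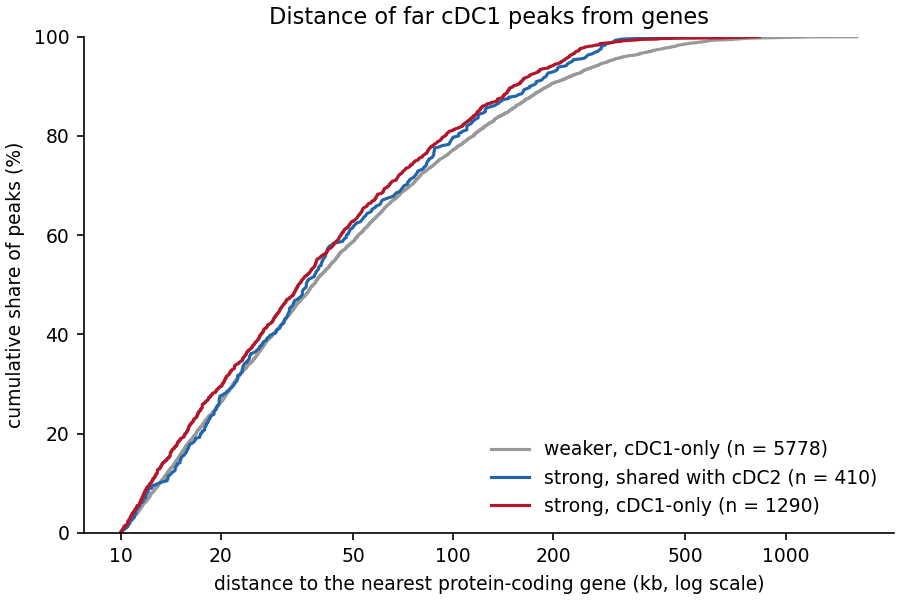
Cumulative share of far cDC1 peaks (per cent) by distance to the nearest protein-coding gene (kb, log axis) for the 1290 strong cDC1-only regions, the 410 strong peaks shared with cDC2 and the 5778 weaker cDC1-only peaks. The 3 curves run close together, with medians of 34.4, 36.2 and 38.0 kb.

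Among lists chosen with earlier results of these data known, core genes of dendritic cells had the highest share of nearest genes. Of the 30 in this list, which holds transcription factors and receptors such as Kit and Ccr7, 14 (46.7%) were nearest to at least 1 region, against the 3.96% of all protein-coding genes given above. These 14 carried 43 regions with a median of 37.6 normalised tags. Beside Id2, Prdm1, Bcl6 and Hlx they included Runx3, a RUNX factor gene, at 73.0 tags and a fold of 17.8 (95% range 7.496 to 55.0), the receptor gene Kit at 56.2, Cebpb at 40 and Runx1 at 41.0. Irf8, which specifies cDC1, had 2 regions, at 29.6 tags on one side and 50.7 on the other, and Zfp366 itself had 2 below the gene, at 30.2 and 36.1 tags. Il12b, the gene of the p40 chain of interleukin 12, had 3: at 30.3 and 49.3 tags far upstream and at 25.9 tags 17.8 kb from the gene. Batf3, whose product partners IRF8 in cDC1, had 1 region of 28.5 tags. By distance the lead was smaller at 100 kb. Within 100 kb of the 30 core genes lay 29 regions, beside 24 for the 32 cytokine, chemokine and costimulation genes. Within 250 kb lay 59, beside 36.

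Of the 20 cDC1 markers 2 (10%) were nearest to a region, Cd24a with 4 and Ppt1 with 2. The strongest at Cd24a held 44.0 normalised tags and 1 knockout tag (fold 53.3, 95% interval 9.44 to 2121). The cDC2 markers had 3 of 20 (15%), namely Itgam, which encodes CD11b, at 73.2 tags, the transcription factor gene Klf4 at up to 44.0 and Dusp5 at up to 31.7.

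Signal regulators had 9 of 28 genes (32.1%) nearest to a region, and cytokine, chemokine and costimulation genes 8 of 32 (25%). Among the first were Tnfaip3, the gene of the NF-kB inhibitor A20, with a highest region of 52.9 normalised tags 89.7 kb upstream (fold 42.8, 95% interval 8.78 to 267.4), the phosphatase gene Dusp2 at 52.9, the kinase subunit gene Pik3r1 at 49.9 and Jak2 at 41.9. Among the second were Cd83 at 60.2 tags, Icosl, a costimulatory ligand gene, at 55.0, Il12b, and the interferon receptor gene Ifnar1 at 44.8. Ifngr1, which encodes a chain of the interferon gamma receptor, had 4 regions 40.1 to 69.5 kb upstream at 26.2 to 36.1 tags.

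In the lists of other cell types the share stood above 3.96% in each but that of T and NK cells, and those of B cells (13.3%) and of monocytes, macrophages and neutrophils (11.8%) stood above that of the cDC1 markers. The counts were 1 of 14 plasmacytoid markers (Runx2, 42.2 normalised tags), 0 of 18 markers of T and NK cells, 2 of 15 markers of B cells (Cr2 and Ebf1, 54.3 and 25.9), 2 of 17 monocyte, macrophage and neutrophil markers (Ccr2 and Adgre1, 32.0 and 30.2) and 1 of 18 neuron and liver genes (Cyp7a1, 33.4). By distance instead of nearest gene, the T and NK cell list had 2 regions within 100 kb and 12 within 250 kb. The B cell list had 2 and 5, the plasmacytoid list 2 and 8. Monocyte, macrophage and neutrophil markers had 7 and 12, and neuron and liver genes 1 and 4. Cr2 was the last protein-coding gene on chromosome 1, so its region, 64.8 kb beyond it, had no other gene on that side to be assigned to. No gene list was tested, and the counts were not adjusted for the length of the stretch beside each gene.

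**Figure D3:**
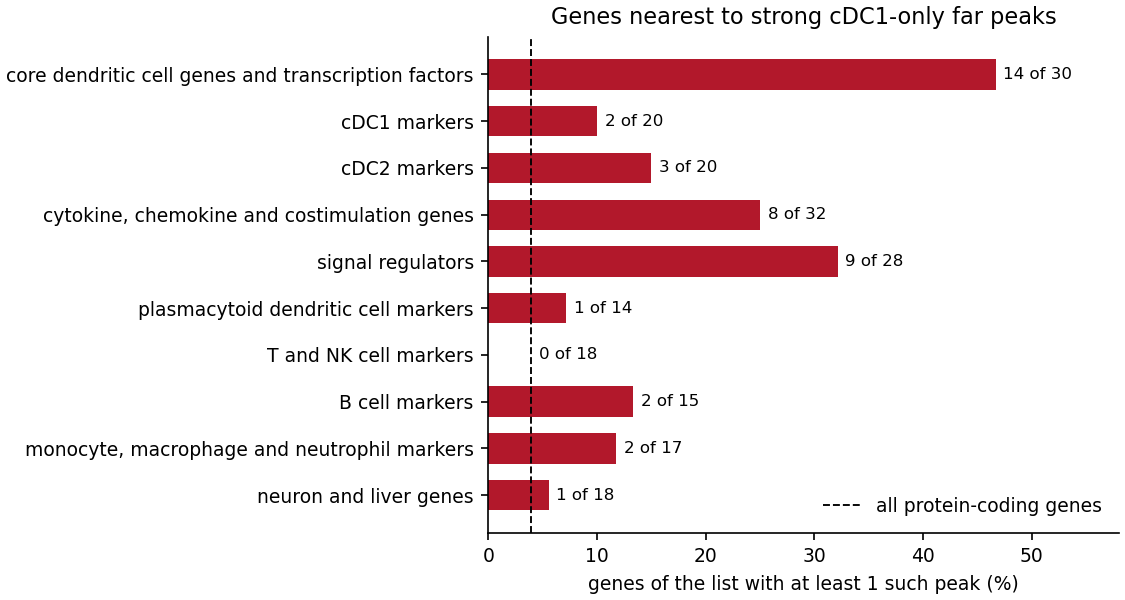
Share of the genes in each of 10 lists (per cent, horizontal bars from 0) that were nearest to at least 1 strong cDC1-only far region, with the counts beside the bars and the share of all protein-coding genes, 3.96%, as a dashed line. The core dendritic cell list stands highest at 14 of 30, and the T and NK cell list has 0 of 18.

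Of the 1290 regions, 308 were centred inside a non-coding RNA gene, or 23.9% (exact 95% interval 21.6% to 26.3%). Here too the interval treats regions as independent, although neighbours can lie in the same gene. The share was 24.2% of the strong shared far peaks and 21.8% of the weaker far peaks, given as a description. Long non-coding RNA genes made up 304 of the 308, and 253 different ones held a region. Morrbid held 4 centres along its length, at 32.0, 28.8, 32.6 and 27.1 normalised tags, in addition to the region at its start. The RNA gene 2310001H17Rik, beside the activation marker gene Cd69, held 2 regions, at 76.1 tags (fold 13.5, 95% interval 6.32 to 33.1) and at 42.9. In 4930469K13Rik 3 regions reached 40, 53.7 and 87.8 tags, the last 2 of them nearest to the adaptor gene Lcp2. Lncpint held 3 inside at 42.9, 52.3 and 30, Dleu2 2 at 35.2 and 44.0, and Pvt1, next to Myc, and Junos, next to Jun, 1 each at 35.1 and 30.4.

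Of 1005 microRNA hairpins in RefSeq, 52 lay within 50 kb of a region, and 51 regions had a hairpin that near. Hairpins that lie together share regions, and no such count is given for other peaks. Among the 52 were several known from myeloid and inflammatory responses, and the hairpins named here were picked, not ranked. The mature forms are shown with the seed, bases 2 to 8, in capitals, since the seed identifies the family.
miR-146a-5p: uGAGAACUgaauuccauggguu
miR-223-3p: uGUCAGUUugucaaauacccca
miR-23a-3p: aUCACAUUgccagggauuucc
miR-27a-3p: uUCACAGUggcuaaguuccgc
let-7a-5p: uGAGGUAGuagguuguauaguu
let-7f-5p: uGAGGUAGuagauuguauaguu
The last 2 share a seed, GAGGUAG, and the other 4 differ from it and from each other. The hairpin Mir146, whose product restrains NF-kB signalling, had a region 10.9 kb upstream on chromosome 11 at 43385291 to 43385481, with 38.8 normalised tags against 10 knockout tags (fold 4.70, 95% interval 2.49 to 10.1), and another 22.3 kb downstream at 26.9 tags. Upstream of Mir223, a myeloid microRNA gene on the X chromosome, 30.3 tags stood 15.6 kb away at the lowest knockout value listed, which is at least 12.2-fold. The hairpins Mir23a, Mir27a and Mir24-2, which lie together, had 1 region of 68.5 tags 9.95 kb upstream of the first. The let-7 cluster had 1 of 39.6 tags 8.41 kb upstream of Mirlet7a-1. A cDC2 peak was centred 1.07 kb from that region, just beyond the limit of 1 kb.

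A region that is missing from the cDC2 list is not shown to be unbound in cDC2. At equal density, a region of 25 normalised tags would give 11.9 unscaled tags in the cDC2 wild-type set, in which the header gives a tag threshold of 7 and the lowest listed peak has 6. At the 410 strong far peaks found in both lists, the cDC2 signal was a median of 0.725 of the cDC1 signal (quartiles 0.519 and 0.974). That ratio is known only for peaks that were listed in cDC2. Whether low depth, the limits over knockout and surroundings or an absence of signal kept a region off the cDC2 list cannot be told from the lists.

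The share of far peaks not listed in cDC2 fell as cDC1 signal rose, from 87.3% of 473 peaks at 25 to 30 normalised tags (exact 95% interval 84.0% to 90.2%) to 40% of 30 peaks at 100 tags or more (22.7% to 59.4%). Peaks inside genes fell less, from 89.9% of 1329 to 63.3% of 60 (49.9% to 75.4%). In each of the 6 intervals of signal the share was lower for far peaks. The exact intervals overlapped in the lowest and in the highest. They treat peaks of 1 list as independent, so neither overlap nor its lack is a test. Over all levels, 75.9% of 1700 far peaks and 85.2% of 4468 peaks inside genes had no cDC2 peak. Both shares rest on the property that chose the regions and on 1 wild-type pool of cDC2, and they were not tested.

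**Figure D4:**
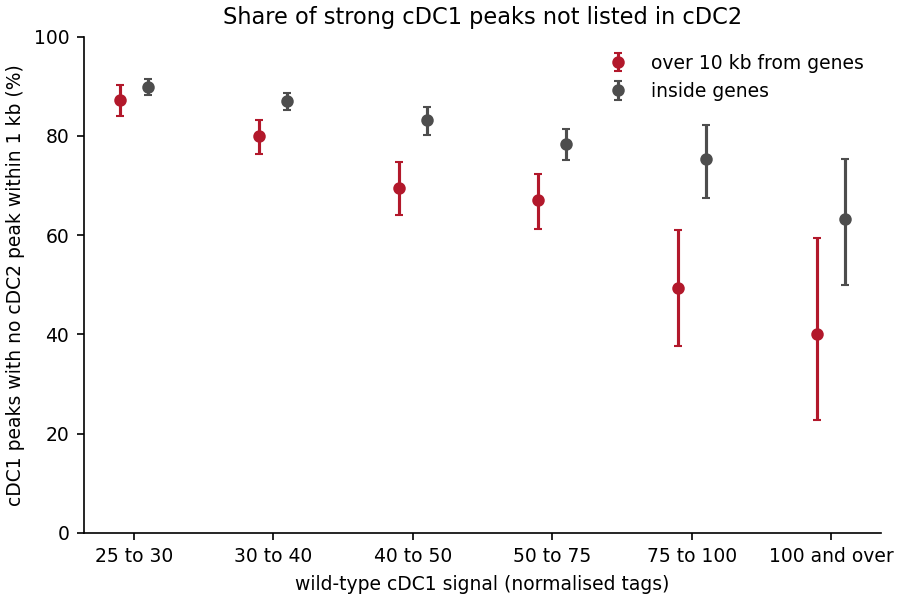
Share of strong cDC1 peaks with no cDC2 peak centre within 1 kb (per cent, from 0 to 100) by wild-type cDC1 signal in normalised tags, for peaks over 10 kb from genes (red) and inside genes (grey), with exact 95% intervals as bars. Far peaks fall from 87.3% to 40% and peaks inside genes from 89.9% to 63.3%.

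Around the regions themselves, cDC2 peaks were near in some places and far in others. The nearest lay within 10 kb of 179 regions (13.9%), within 50 kb of 535 (41.5%) and over 500 kb from 215. For the weaker cDC1-only far peaks the shares were 5.59% within 10 kb and 26.1% within 50 kb. For strong cDC1-only peaks inside genes they were 10.4% and 32.8%, and these differences were not tested. By gap between genes, 614 regions shared theirs with at least 1 cDC2 peak and 676 did not. Regions of the second kind included all 7 at Prdm1, the 7 between Khdrbs1 and Ptp4a2 and the 6 between Fhl2 and Nck2, whereas the gaps beside Id2, Tomm20 and Trib1 held 6, 10 and 3 cDC2 peaks. Close pairs also occurred: at Trib1 the strongest region, of 104.7 normalised tags, lay 1.77 kb from a cDC2 peak, and 26 regions had one between 1 and 2 kb away. Other cDC1 peaks of any strength stood within 10 kb of 844 regions (65.4%), beside 65.4% of the shared and 49.5% of the weaker far peaks.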

How the data were processed

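DC-SCRIPT was profiled by CUT&Tag in 8 libraries of splenic cDC1 and cDC2, whose titles give subset and genotype. Peaks of 191 bp were called with HOMER findPeaks on 1 wild-type tag set with 1 knockout tag set as control, per the file headers, with a false discovery rate of 0.001, a fold of at least 4 and a Poisson p-value of at most 0.0001 over knockout and over the surrounding 10 kb. The deposited signal of a peak was scaled by the authors so that wild-type tags sum to 10000000. The fold deposited by the authors is a ratio, wild-type over knockout tags after matching depth, and the score and the focus ratio, a fraction, were deposited by the authors and not used for any result. The submitters' processing notes name HOMER and GRCm38 or mm10, 2 names of 1 assembly; an aligner is not given in the sources read here.

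Distances run from peak centres to gene bodies of RefSeq GRCm38.p6. Intervals of a fold are exact (Clopper-Pearson) from unscaled tags rounded to whole numbers, cover counting error only, and treat repeated tags as independent. Where no knockout tag was listed, a floor of 3 tags (2.47 normalised tags) gives a lower bound. The interval of the median distance is from order statistics. Strands and promoter windows came from RefSeq, which did not hold every gene. The lists held 212 entries, 1 matched by synonym. Named peaks were the 15 strongest, those of the 5 genes with the most, the 3 farthest, the 3 largest groups, up to 4 genes per list, and Zfp366, Irf8 and Il12b; others were named after their values were seen. Members, lists and motifs were chosen with earlier results of these data known. No test was made, because no value per library was used. The code was checked on simulated data. Python 3.11.15, pandas 2.3.3 and scipy 1.17.1 were used.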

Additional observations from a re-analysis of the deposited data

Results flagged for a closer look

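Of the peaks that met the limits on signal and on cDC2, 3 stood on scaffolds of the assembly on which no gene of the table is placed, so that their distance from genes is not known and they were left out of the 1290. All had wild-type signal above the knockout control. The first reached 186.9 normalised tags, above every region of the report, against 51.5 knockout tags, a fold of 4.40 (95% range 3.29 to 5.90). The other 2, on a second scaffold, reached 41.3 and 32.0 normalised tags with folds of 7.18 (95% interval 3.38 to 18.1) and 11.1 (95% interval 3.67 to 36.1).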

How the results depend on the processing

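The count of 1290 regions stayed within 1.5 times under 6 of its 8 alternatives, and was 480 with a gene distance of 50 kb and 630 when non-coding genes and pseudogenes counted as genes too. The share with another region within 50 kb moved from 51.9% to 43.2% at 25 kb, 58.5% at 100 kb, 59.0% with a limit of 20 tags and 45.0% with 30 tags. The share inside non-coding RNA genes was 26.6% at a gene distance of 20 kb and 28.8% at 50 kb. With knockout tags raised to at least 3, the median fold was 11.2. Regions of core dendritic cell genes were 3.33% of all by nearest gene, 2.25% within 100 kb and 4.57% within 250 kb of the gene. The median distance stayed within its interval under all 4 alternatives. These varied only the tag limit and the cDC2 rule, and not the gene distance, which sets the lowest distance possible. The sequence content of the regions was not compared, since it needs a genome. No paired analysis was possible because the lists hold 1 value per genotype, and for the same reason no library could be left out. The depth of cDC2 and its single wild-type pool limit every statement on absence from cDC2.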

Other observations

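Some regions counted as far from genes lay inside genes that the table does not class as protein-coding. Atp10d, a phospholipid transporter gene that the table lists as a transcribed pseudogene, contained 5 regions at 39.6, 34.7, 29.5, 32.8 and 35.7 normalised tags. The T cell receptor loci contained 2, at 50.5 tags in Tcra with the lowest knockout value listed (at least 20.4-fold) and at 39.2 tags in Tcrb (fold 19.1, 95% interval 5.31 to 77.8). No T and NK cell marker gene was nearest to any region, although 12 regions lay within 250 kb of one.

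The mice were female per the labels, and the cDC1 list held 10 peaks on the Y chromosome, all nearest to Gm52481 between 90738071 and 90819863, in or beside the stretch at the end of the chromosome that X and Y share. Of these, 2 were among the regions, at 51.3 and 41.2 normalised tags with 9 and 10.5 knockout tags. Several regions rose far above their surroundings at a modest fold over knockout. That near Cr2, beyond the last protein-coding gene of chromosome 1, stood 80.1-fold above the surrounding 10 kb at a fold over knockout of 5.72 (95% range 3.08 to 10.8). That near Axin2 on chromosome 11 stood 60.03-fold above its own surroundings against 27.5 knockout tags, a fold of 4.17 (95% range 2.79 to 6.27).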
